A study of Mus musculus with 6 samples.

Results

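The G2 and mitosis genes are 51 genes whose transcripts and products accumulate as a cell finishes DNA replication, enters mitosis and divides. They were taken from a list of gene symbols that was chosen with earlier results of these data known. All 51 were among the 23420 symbols counted in each library, and all 51 passed the low-count filter that left 13087 genes for testing. Every one of them had a lower fitted level in the Pea3 TKO lacrimal gland bud than in the control bud, from a log2 fold change of -0.06 for Ccnb2 to -0.88 for Mki67. In all, 16 of the 51 passed the test as lower (adjusted p under 0.05, edgeR quasi-likelihood test with Benjamini-Hochberg adjustment over all 13087 genes) and 0 passed as higher. The difference was carried mainly by Pea3 TKO replicates 1 and 2. In Pea3 TKO replicate 3 most of these genes lay closer to the controls. Replicates 1 and 2 also differed from every control in Y-linked and mesenchyme marker RNA, from which genotype cannot be told apart there. Of the 16, Hmmr alone kept its call without each library in turn, and in 4 of those 6 fits the members were called lower no more often than all genes. With the Y-linked level as a covariate, 0 members were called, Hmmr included, beside 2.19% of all genes called lower, and 38 of 51 lay below 0.

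The study asked which transcripts depend on the Pea3 family of ETS transcription factors in the lacrimal gland, the tear gland that buds from the conjunctival epithelium. The 3 control libraries are labelled Le-Cre, and the 3 Pea3 TKO libraries are labelled as Le-cre animals without functional Pea3 (Pea3-/-) and with floxed Erm (Ermfl/fl) and floxed Er81 (Er81fl/fl). Pea3, Erm and Er81 are the genes Etv4, Etv5 and Etv1. All 6 libraries came from embryos of mixed genetic background at E14.5, and all carried the Cre transgene, which acts in lacrimal gland and conjunctival epithelium. Pea3 was a null allele in every tissue, whereas Erm and Er81 were removed only where Cre acted, and the control label names none of these alleles. For this RNA-seq the study names Le-Cre embryos as the controls, while the sample titles call them WT. The methods of the study, however, name both Le-Cre animals and Le-Cre animals heterozygous for these alleles as controls in general, so that a control may have carried them. Bud epithelium was cut from frozen sections by laser capture, and its RNA was amplified before sequencing. Nothing in the labels says that each library came from a separate embryo, so the p-values measure the spread between these libraries, which may be partly technical.

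Mitosis is started by the kinase Cdk1 bound to cyclin B, which is held inactive by inhibitory phosphorylation until Cdc25 phosphatases remove it. Condensins and topoisomerase II then compact the chromosomes, the spindle is built by kinesins and microtubule-binding proteins, and the kinetochore and its checkpoint kinases hold the cell in metaphase until the anaphase-promoting complex is released to destroy cyclin B. Most of these genes are silent in resting cells and are switched on together in G2 through the MuvB complex with B-Myb and FoxM1, which acts at promoter elements known as CHR (cell-cycle genes homology region) and CCAAT boxes. In a growing epithelial bud their summed RNA follows how many cells are dividing. In bulk RNA, fewer cells in G2 and mitosis and less RNA of these genes per cell cannot be told apart.

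Total counts ran from 14194775 to 17860140 per library. A detection floor of 3 counts corresponded to at most 0.211 CPM, counts per 1e6 reads, before normalization. All other CPM are normalized. The deleted genes checked the labels, since Etv5 fell from 961, 1010 and 1202 CPM in the controls to 88.2, 152 and 177 CPM in Pea3 TKO, Etv4 from between 129 and 184 CPM to between 10.9 and 28.4 CPM, and Etv1 from between 28.7 and 33.9 CPM to between 9.21 and 9.98 CPM (adjusted p at most 0.000429 for each). Epithelial identity was held in every library by Epcam (1201 to 1500 CPM) and Cdh1 (458 to 1108 CPM), and 9 of 11 epithelial markers tested higher in Pea3 TKO, with sums of 3380 to 4540 CPM in control and 7118 to 8707 CPM in Pea3 TKO. The Pea3 TKO libraries were not alike in 2 other respects. The summed level of 4 Y-linked genes (Ddx3y, Kdm5d, Eif2s3y and Uty) was 136 to 175 CPM in the 3 controls and 139 CPM in Pea3 TKO replicate 3, but 0.445 and 0.210 CPM in Pea3 TKO replicates 1 and 2. The X-linked RNA Xist showed the opposite, with 106 and 32.5 CPM in Pea3 TKO replicates 1 and 2. It had at most 0.436 CPM in the controls and in Pea3 TKO replicate 3. The labels used here give no sex. The summed level of 16 mesenchyme markers was 430 to 509 CPM in the controls, 904 and 1069 CPM in Pea3 TKO replicates 1 and 2, and 436 CPM in Pea3 TKO replicate 3, with 3 of 15 tested markers higher (Col5a1, Lum and Dcn) and 1 lower (Foxc2). Of the other cell types, endothelial markers summed to 31.4 to 37.4 CPM in control and 20.4 to 33.1 CPM in Pea3 TKO with Tie1 and Emcn at 0 counts throughout, immune markers to 1.12 to 32.0 and 1.64 to 30.7 CPM, red blood cell markers to 36.0 to 122 and 52.2 to 237 CPM, neural crest and glia markers to 225 to 321 and 109 to 131 CPM (mostly Erbb3), and muscle markers to at most 4.99 CPM. The part that embryo sex or mesenchymal RNA had in the mitotic genes was not tested as a cause, and values with and without the libraries concerned are given below.

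The promoters are shown first because the members share features there that their choice did not use. RefSeq gave a promoter (GRCm38.p6, 250 bases before to 50 bases after the start site) for 44 of the 51 members. The 150 bases that end just before the start of 7 of them are printed, 5′ to 3′ on the strand of the gene, with CHR-like letters (TTTGAA or TTCGAA) and the CCAAT box in capitals, in either orientation. Cdk1, Hmmr, Mki67, Kif11 and Ckap2 are members that passed the test, with the mitotic kinase, the most strongly supported member and the proliferation marker among them. Top2a and Plk1 are members that did not pass. The stretches are Cdk1 chr10:69352913-69353062, minus strand, Hmmr chr11:40733438-40733587, minus strand, Mki67 chr7:135716380-135716529, minus strand, Kif11 chr19:37376232-37376381, plus strand, Ckap2 chr8:22185820-22185969, minus strand, Top2a chr11:99024190-99024339, minus strand and Plk1 chr7:122159285-122159434, plus strand.
Cdk1: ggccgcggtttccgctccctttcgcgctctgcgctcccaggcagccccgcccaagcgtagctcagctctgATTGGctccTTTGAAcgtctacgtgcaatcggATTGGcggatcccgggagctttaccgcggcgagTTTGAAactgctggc
Hmmr: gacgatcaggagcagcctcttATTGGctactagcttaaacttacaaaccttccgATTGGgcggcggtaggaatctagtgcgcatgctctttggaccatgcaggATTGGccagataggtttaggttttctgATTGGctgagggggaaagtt
Mki67: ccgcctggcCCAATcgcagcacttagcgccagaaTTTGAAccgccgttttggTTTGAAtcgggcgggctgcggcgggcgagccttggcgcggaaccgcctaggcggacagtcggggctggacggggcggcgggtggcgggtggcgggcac
Kif11: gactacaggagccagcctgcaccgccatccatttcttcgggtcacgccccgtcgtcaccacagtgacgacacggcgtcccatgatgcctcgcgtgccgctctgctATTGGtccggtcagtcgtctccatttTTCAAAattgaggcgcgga
Ckap2: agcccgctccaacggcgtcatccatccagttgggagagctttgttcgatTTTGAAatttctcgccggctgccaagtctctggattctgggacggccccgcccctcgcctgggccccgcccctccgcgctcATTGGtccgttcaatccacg
Top2a: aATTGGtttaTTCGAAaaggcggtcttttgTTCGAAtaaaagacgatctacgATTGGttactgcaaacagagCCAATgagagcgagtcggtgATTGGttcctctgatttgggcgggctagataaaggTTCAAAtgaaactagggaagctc
Plk1: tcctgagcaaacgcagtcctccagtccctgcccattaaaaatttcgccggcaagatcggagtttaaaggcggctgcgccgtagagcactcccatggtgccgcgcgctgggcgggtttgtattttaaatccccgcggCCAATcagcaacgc

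Counted from the start base, the CHR-like letters of Cdk1 began at -71 and -15, next to CCAAT boxes at -80 and -48. In Kif11 the pair stood at -19 and -45, and in Ckap2 at -101 and -20. Mki67 held CHR-like letters at -116 and -98 and a CCAAT box at -141. Hmmr had CCAAT boxes at -129, -96, -47 and -20 in the printed stretch, and its CHR-like letters began at 8, inside the transcript. Top2a, which did not pass the test, had the densest set, with CHR-like letters at -140, -120 and -23 and CCAAT boxes at -149, -98, -78 and -58. Plk1 had a CCAAT box at -14 and CHR-like letters at 30.

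Each gene was counted once, as holding the letters if any of its 300-base windows held them on either strand. CHR-like letters were present in 34 of the 44 members (77.3%), against 5854 of all 27025 genes (21.7%) and 9 of 43 S phase genes (20.9%). The CCAAT box was present in 34 of 44 (77.3%), against 41.1% of all genes and 62.8% of S phase genes. Both features were found for 29 of 44 members (65.9%) and for 9.65% of all genes, although not always in the same window. In Tmpo, the CCAAT boxes and the CHR-like letters stood in different windows. E2F-like letters (TTTGGCGC, TTTCGCGC, TTTCCCGC or TTTGGCGG), a feature known from S phase promoters, were present in 3 of 44 members (6.82%), 2.7% of all genes and 51.2% of S phase genes. The ETS-like letters CCGGAAG, the core to which Pea3 factors bind, were present in 9 of 44 members (20.5%), 9.93% of all genes and 25.6% of S phase genes. All 12 called members with a promoter held CHR-like letters and all 12 held a CCAAT box, against 22 of the 32 other members for each feature. ETS-like letters were in 2 of the 12 called members and in 7 of the 32 others. These are matches of letters in short windows and do not show that a factor was bound.

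The comparison of Pea3 TKO with control over the 51 genes gave a median log2 fold change of -0.37, beside 0.01 for all 13087 genes tested. All 51 members lay below 0, compared with 49.2% of all genes. In total 16 of 51 (31.4%) were called lower, where the background was 11.3% of all genes tested, and 0 of 51 were called higher, where the background was 13.6%. DESeq2 called 20 lower, beside 12.1% of all genes, limma-voom called 18 lower, beside 12.5%, and both called 0 higher. At an unadjusted p under 0.05 the members numbered 29 (all lower), beside 18.1% of all genes that were lower at that level, and 10 had an adjusted p from 0.05 to 0.10. In 23 of 51 members every Pea3 TKO library lay below every control library, a pattern shown by 21.3% of all genes. The 95% interval of the other 22 members that missed even the unadjusted threshold reached above 0. Added together, the 51 genes took 0.965, 1.09 and 1.02% of all counts in the 3 controls and 0.754, 0.752 and 0.945% in Pea3 TKO replicates 1 to 3, and their summed mean CPM fell by 21.7%. The median standard error of a member was 0.16 on the log2 scale. No test was made over the group as a whole, since its members are not independent replicates.

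**Figure D1:**
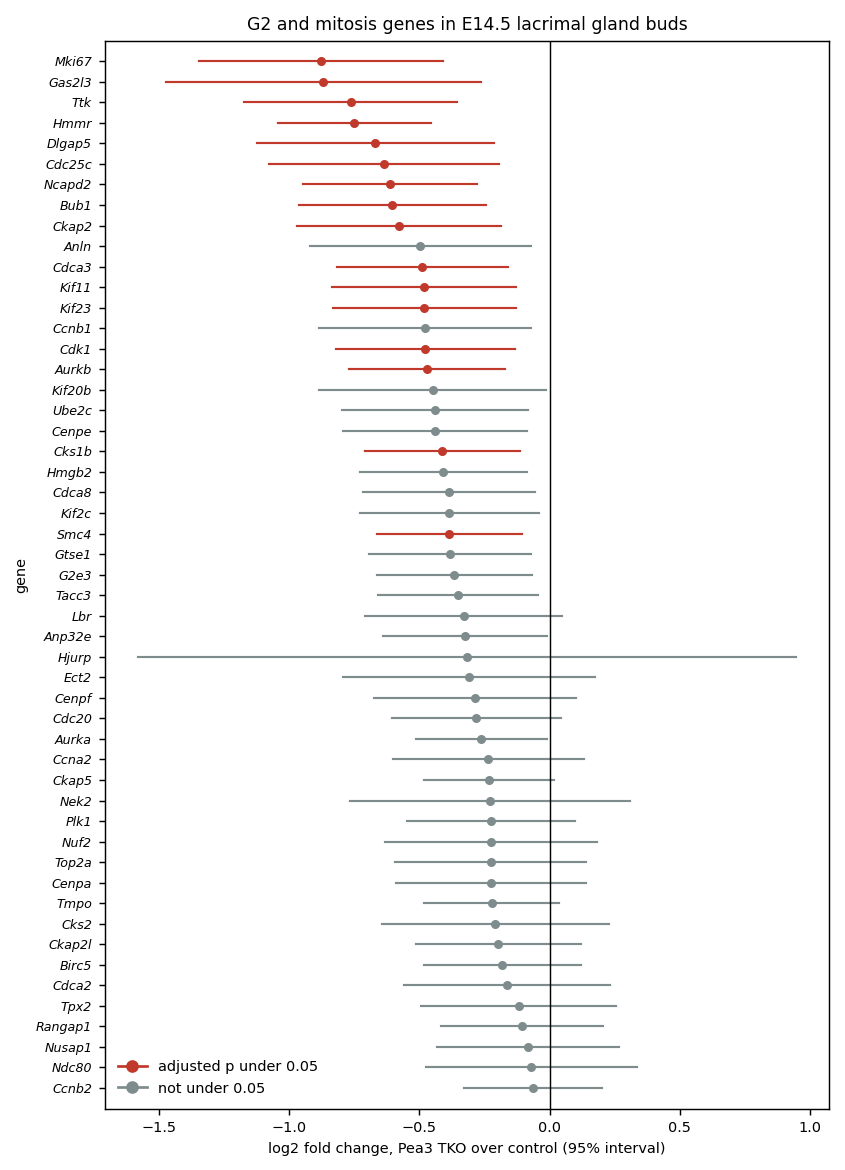
Log2 fold change of Pea3 TKO over control (horizontal axis) for each of the 51 G2 and mitosis genes, with the 95% interval of the edgeR quasi-likelihood fit as a bar, n = 3 libraries per group. All 51 points lie left of 0, and the 16 genes in red passed an adjusted p under 0.05.

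Entry into mitosis was represented by 7 members, of which 3 were called lower, beside 11.3% of all genes. Cdk1 (chr10:69335146-69352938, GRCm38), the kinase that drives entry, had 326, 402 and 350 CPM in the controls and 231, 227 and 317 CPM in Pea3 TKO. All 3 mutant libraries lay under the lowest control, and Cdk1 fell by 28.2% (log2 fold change -0.48 ± 0.15 SE, adjusted p = 0.0468). Cks1b (chr3:89415472-89418383), a small subunit that binds Cdk complexes, had 376, 468 and 421 CPM in control and 281, 309 and 360 CPM in Pea3 TKO. It fell by 24.9% (log2 fold change -0.41 ± 0.13, adjusted p = 0.0473) and had the highest level per kilobase of transcript of all 51 members in control, 374 RPKM. Cdc25c, the phosphatase that activates Cdk1, fell most of this group, from 62.5, 74.4 and 64.3 CPM to 34.7, 37.6 and 57.1 CPM (log2 fold change -0.64 ± 0.20, adjusted p = 0.0418).

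The mitotic cyclins did not pass the quasi-likelihood test, although DESeq2 and limma-voom called Ccnb1 lower. Ccnb1, the cyclin B1 partner of Cdk1, had 505, 524 and 478 CPM in the controls against 306, 293 and 483 CPM in Pea3 TKO. The first 2 mutant libraries were far under the controls and replicate 3 lay among them, which left a log2 fold change of -0.48 with a 95% interval from -0.88 to -0.07 and an adjusted p of 0.0828. For Ccnb2, the second B-type cyclin, the groups overlapped, with 174, 182 and 164 CPM in control and 159, 152 and 186 CPM in Pea3 TKO, and its interval ran from -0.33 to 0.20. Ccna2, the A-type cyclin of S phase and G2, had a log2 fold change of -0.24 (interval -0.60 to 0.13), and Cks2, the paralog of Cks1b, had -0.21 (interval -0.64 to 0.23). For these genes a fall like that of Cdk1 lay inside the interval, except for Ccnb2.

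Of the 6 mitotic kinases, 3 were called lower, beside 11.3% of all genes. Ttk (chr9:83834689-83872389), the checkpoint kinase also known as Mps1, had 97.1, 105 and 105 CPM in control and 49.3, 51.6 and 79.2 CPM in Pea3 TKO. The control values were close to each other and all mutant libraries lay under them, and Ttk fell by 41.1% (log2 fold change -0.76 ± 0.18, adjusted p = 0.0150). Bub1 (chr2:127801122-127831865), which recruits the checkpoint to kinetochores, fell from 145, 130 and 183 CPM to 84.0, 105 and 112 CPM (log2 fold change -0.60 ± 0.16, adjusted p = 0.0228). Aurkb, the catalytic subunit of the chromosomal passenger complex, fell from 198, 225 and 206 CPM to 130, 148 and 176 CPM (log2 fold change -0.47 ± 0.13, adjusted p = 0.0297). Aurka, the spindle pole kinase, also had all mutant libraries (140, 132 and 155 CPM) under the controls (163, 176 and 174 CPM), but with an adjusted p of 0.117. Plk1, the kinase of mitotic entry, centrosomes and cytokinesis, had 247, 283 and 216 CPM in control and 201, 189 and 248 CPM in Pea3 TKO, so the groups overlapped (log2 fold change -0.23, interval -0.55 to 0.10). Nek2, a centrosome kinase, had the widest spread of the 6, with 43.2 and 44.0 CPM in mutant replicates 1 and 2 but 79.0 CPM in replicate 3, above every control.

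Aside from the kinases Aurkb and Bub1, which also act there, 8 members were grouped as passenger complex, centromere and kinetochore. The quasi-likelihood test called 0 of the 8 lower, beside 11.3% of all genes, whereas DESeq2 called Cenpe lower. At an unadjusted p under 0.05 the group held 2, Cenpe (log2 fold change -0.44, adjusted p = 0.0689), the kinesin that carries chromosomes to the spindle equator, and Cdca8 (log2 fold change -0.39, adjusted p = 0.0839), a passenger complex subunit. Limma-voom called 0 of the 8. The outer kinetochore proteins Ndc80 and Nuf2 and the centromeric histone Cenpa had intervals that spanned 0, as did Birc5 (survivin), Cenpf and Hjurp, the chaperone of Cenpa. Ndc80 was among the 3 members nearest to 0, with 72.5, 65.0 and 59.1 CPM in control and 50.99, 56.9 and 79.4 CPM in Pea3 TKO (log2 fold change -0.07, interval -0.47 to 0.33). Hjurp was the lowest of the 51 members, at 0.323 RPKM in control, and its interval from -1.58 to 0.95 allowed no statement.

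Both partners of the anaphase-promoting complex missed the threshold of the quasi-likelihood test, although DESeq2 called Ube2c lower. Ube2c, its ubiquitin-conjugating enzyme, had 426, 602 and 462 CPM in control and 380, 307 and 411 CPM in Pea3 TKO, with no overlap between the groups and an adjusted p of 0.0718. Cdc20, its activator in metaphase, had 380, 441 and 385 CPM in control and 316, 278 and 397 CPM in Pea3 TKO, with an adjusted p of 0.187.

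Of 7 members that shape chromosomes and chromatin, 3 were called lower, beside 11.3% of all genes. Mki67 (chr7:135689784-135716361), the source of the Ki-67 antigen that coats mitotic chromosomes and marks cycling cells, had 215, 347 and 298 CPM in control and 201, 126 and 142 CPM in Pea3 TKO. The controls spread widely, yet every mutant library lay under the lowest of them, and Mki67 fell by 45.5%, the steepest fitted change of the 51 (log2 fold change -0.88 ± 0.21, adjusted p = 0.0145). Its level in Pea3 TKO replicate 3 was as low as in replicates 1 and 2, unlike most members. Ncapd2 (chr6:125168007-125191701), a condensin I subunit, fell from 214, 191 and 260 CPM to 125, 147 and 163 CPM (log2 fold change -0.61 ± 0.15, adjusted p = 0.0156). Smc4, the ATPase subunit shared by both condensins, fell from 211, 203 and 185 CPM to 157, 133 and 168 CPM (log2 fold change -0.38 ± 0.12, adjusted p = 0.0471). Top2a, the topoisomerase that untangles sister chromatids, had 313, 419 and 397 CPM in control and 270, 303 and 393 CPM in Pea3 TKO, and its interval ran from -0.59 to 0.14. Hmgb2 (adjusted p = 0.0635), Anp32e (adjusted p = 0.122) and Cdca2 (adjusted p = 0.539), which bind chromatin, did not pass. DESeq2 and limma-voom called Hmgb2 lower.

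Among the 11 spindle and microtubule members 4 were called lower, beside 11.3% of all genes. In 7 of them every mutant library lay below every control, beside 21.3% of all genes. Hmmr (chr11:40701395-40733422), a spindle assembly factor that also serves as a hyaluronan receptor, had 128, 146 and 123 CPM in control and 77.8, 70.6 and 87.6 CPM in Pea3 TKO. The gap between the groups exceeded the range within either, and Hmmr fell by 40.5% (log2 fold change -0.75 ± 0.13, adjusted p = 0.00356), the smallest p of the 51. Dlgap5, which bundles spindle fibres at kinetochores, fell from 62.6, 83.3 and 73.7 CPM to 38.4, 38.7 and 60.9 CPM (log2 fold change -0.67 ± 0.20, adjusted p = 0.0386). Ckap2, a microtubule-binding protein, fell from 77.1, 84.2 and 80.1 CPM to 41.3, 53.8 and 66.5 CPM (log2 fold change -0.58 ± 0.18, adjusted p = 0.0374).

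Kif11, the motor that pushes spindle poles apart, fell from 177, 163 and 176 CPM to 112, 102 and 155 CPM (log2 fold change -0.48 ± 0.16, adjusted p = 0.0496). Tacc3, Gtse1 and Ckap5, which act on spindle microtubules, also had every mutant library under every control, with adjusted p-values of 0.0895, 0.0722 and 0.159. Kif2c, a microtubule depolymerase, had an adjusted p of 0.0957. Tpx2, which activates Aurka on the spindle, had 144, 138 and 209 CPM in Pea3 TKO, its replicate 3 above all controls (165 to 198 CPM). Nusap1, a microtubule bundler, was near 0, with 188, 139 and 156 CPM in control and 132, 143 and 180 CPM in Pea3 TKO (interval -0.43 to 0.26), and Ckap2l had an interval from -0.51 to 0.12.

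Cytokinesis was represented by 5 members, with 2 called lower, beside 11.3% of all genes. Gas2l3 (chr10:89408823-89443967), which links actin and microtubules at the midbody, had 23.3, 36.6 and 27.7 CPM in control and 15.7, 11.3 and 20.9 CPM in Pea3 TKO. It fell by 45.3% with a wide interval (log2 fold change -0.87 ± 0.27, interval -1.47 to -0.27, adjusted p = 0.0416). Kif23, the motor of the central spindle, fell from 133, 174 and 174 CPM to 110, 98.2 and 136 CPM (log2 fold change -0.48 ± 0.16, adjusted p = 0.0499). Its mutant replicate 3 lay just above its lowest control. Anln (anillin, adjusted p = 0.0837), Kif20b (adjusted p = 0.121) and Ect2 (adjusted p = 0.331), which position and close the cleavage furrow or complete abscission, did not pass.

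The nuclear envelope and transport genes Tmpo (adjusted p = 0.192), Lbr (adjusted p = 0.185) and Rangap1 (adjusted p = 0.622) did not pass. Of the remaining pair, Cdca3, a trigger of mitotic entry that recruits Wee1 for destruction, fell from 139, 165 and 147 CPM to 94.1, 97.9 and 130 CPM (log2 fold change -0.49 ± 0.15, adjusted p = 0.0371). G2e3, a G2-specific ubiquitin ligase, had 52.8, 54.4 and 53.9 CPM in Pea3 TKO under control values of 61.6 to 75.5 CPM, with an adjusted p of 0.0719.

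**Figure D2:**
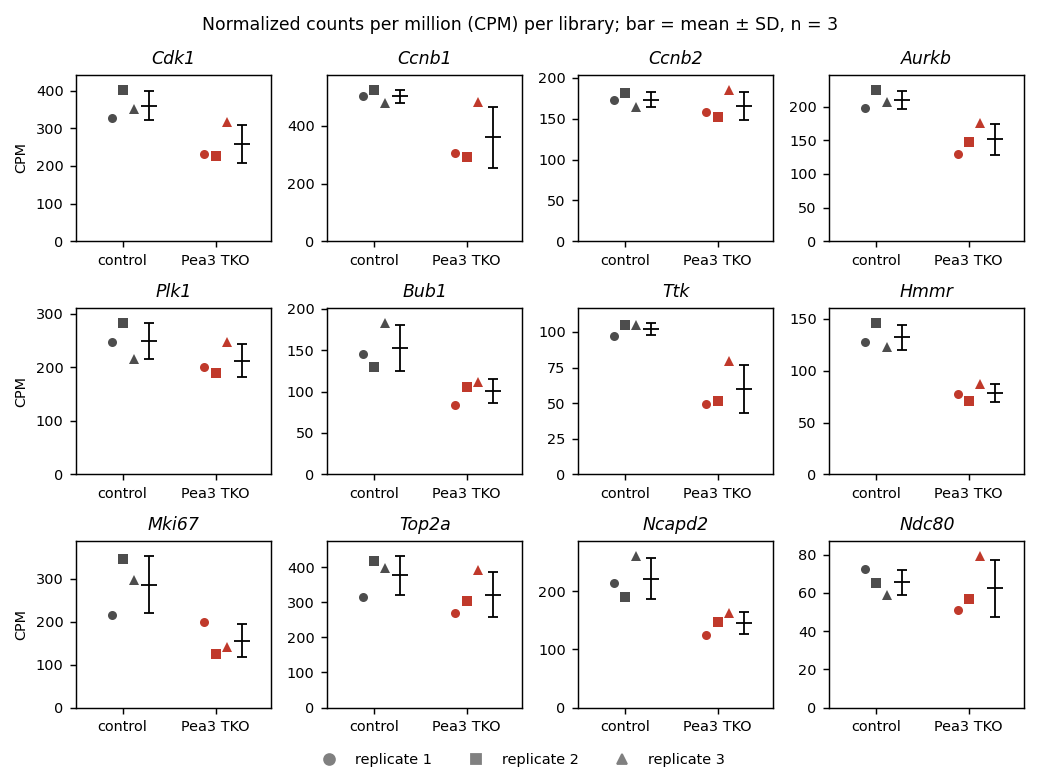
TMM-normalized CPM (vertical axis, from 0) of 12 G2 and mitosis genes in each control (grey) and Pea3 TKO (red) library, with the mean ± SD of n = 3 beside them. Hmmr, Ttk, Bub1, Mki67 and Ncapd2 have every mutant library under every control, whereas in Ccnb1, Ccnb2, Plk1, Top2a and Ndc80 Pea3 TKO replicate 3 (triangles) reaches the controls.

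The mutant libraries differed from each other in the same way for nearly the whole group. Relative to the mean control level, the median member stood at -0.53 and -0.52 in Pea3 TKO replicates 1 and 2 but at -0.12 in replicate 3, on a log2 scale on which the controls had medians of -0.08, 0.10 and -0.02 and the median of all genes lay between -0.02 and 0.01 in every library. Replicate 1 had 47 members below the control range and replicate 2 had 49. Replicate 3 had 24 below, 19 within and 8 above it. For all genes tested the shares below the control range were 36.4, 35.1 and 33.6% in the same order. In 46 of 51 members replicate 3 had the highest level of the 3 mutant libraries, compared with 32.3% of all genes.

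The 8 members above the control range in replicate 3 were Ccnb2, Cdca2, Ckap2l, Ndc80, Nek2, Nuf2, Rangap1 and Tpx2, of which 0 were called. Of the 24 below it, 15 were called, and the call of the remaining one, Kif23, was made with replicate 3 inside the control range. The calls use the same values of replicate 3, so this split describes them and does not test them. Leaving replicate 3 out gave 25 members called lower of 51, beside 10.6% of all genes, and all 16 of the members called with 6 libraries were among them. Ccnb1 was then called, with a log2 fold change of -0.75, as was Cdc20, with one of -0.44.

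Replicate 3 was the mutant library that shared Y-linked expression and low mesenchyme marker levels with the controls. When replicate 3 alone was compared with the 3 controls, its variation was taken to be like that of the controls. In that comparison 0 of 51 members were called lower by the edgeR quasi-likelihood test, beside 2.04% of all genes. The median of the members was then -0.12, and 37 of 51 lay below 0. The lowest log2 fold changes were -1.01 ± 0.28 for Mki67, -0.60 ± 0.23 for Cenpe and -0.58 ± 0.17 for Hmmr. Cdk1 stood at -0.17 ± 0.16, Ccnb1 at -0.05 ± 0.12 and Plk1 at 0.01 ± 0.17. With the summed Y-linked level as a covariate in the fit of all 6 libraries, which in effect sets replicate 3 apart in the same way, 0 members were called (2.19% of all genes were called lower), 38 lay below 0 and the median was -0.12. For Pea3 TKO replicates 1 and 2, genotype cannot be told apart from the difference in Y-linked, Xist and mesenchyme RNA.

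**Figure D3:**
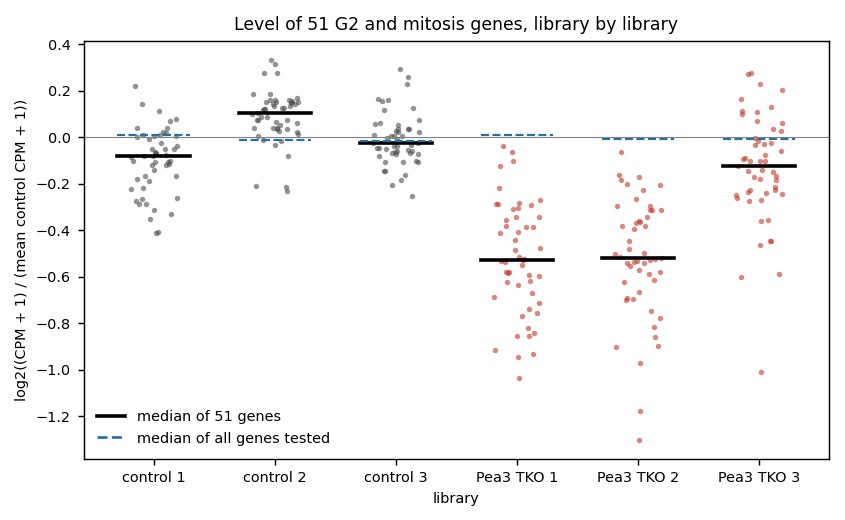
Level of each of the 51 G2 and mitosis genes (points) in every library, as log2 of (CPM + 1) over the mean control (CPM + 1), with their median (black bar) and the median of all genes tested (dashed). The medians are -0.53 and -0.52 in Pea3 TKO replicates 1 and 2 and -0.12 in replicate 3.

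The calls also varied with single control libraries. Without control replicate 2, 3 members (5.88%) were called lower, beside 6.2% of all genes, and without control replicate 3 the number was again 3 (5.88%), beside 5.92%. Without Pea3 TKO replicate 1 it was 4 (7.84%), beside 7.96%, and without Pea3 TKO replicate 2 it was 1 (1.96%), beside 6.51%. In these 4 fits the members were thus called no more often than all genes. Without control replicate 1 the number was 17 (33.3%), beside 10.4%. Hmmr was the only member called in each of the 6 fits without 1 library and also the only one with an adjusted p under 0.01. Mki67 and Ncapd2 were called in 4 of the 6. The threshold also set the number, since 26 members had an adjusted p under 0.10. A correction for GC content and exonic length raised the number called lower from 16 to 29, with 19.5% of all genes called lower. That correction moved the median of all genes to -0.14 and changed the share of higher genes among all calls from 54.6% to 36.8%. Relative to the median of all genes, the members stood at -0.35 with it and at -0.38 without it.

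In the control bud the members covered a wide range of levels. Per kilobase of transcript, they ran from 0.323 to 374 RPKM with a median of 35.4 RPKM. After Cks1b came Cdc20 (215 RPKM), Ube2c (191 RPKM), Hmgb2 (171 RPKM) and Cks2 (162 RPKM), while Gas2l3 (4.15 RPKM), Cenpf (8.54 RPKM) and G2e3 (8.77 RPKM) stood above Hjurp at the low end. Between control libraries the members had a median coefficient of variation of 10.1%, beside 15.1% for all genes, which were not matched to them in level. The largest falls were not those of the most abundant members, since Mki67, Gas2l3, Ttk and Hmmr had 28.5, 4.15, 20.7 and 24.4 RPKM in control. Exons of 9 members overlapped another counted gene, on the opposite strand in Ccna2, Cdc20, Cdca8, Nusap1, Rangap1, Tacc3 and Ube2c and on the same strand in Ckap5 and Ncapd2, which hold small nucleolar or Cajal body RNA genes. Whether strand was used in counting is not given, so the reads of those pairs may be shared. Of these 9, only Ncapd2 was among the called members.

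The rest of the mitotic machinery was followed through 140 further genes in 6 lists, none of which is a member. These lists, too, were chosen with earlier results of these data known. Of the 140 genes, 33 (23.6%) were called lower and 3 higher, beside 11.3% and 13.6% of all genes. In all, 115 (82.1%) had a log2 fold change below 0, beside 49.2% of all genes, and the median was -0.27. Most of them therefore lay on the same side as the members, although not without exception.

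Of 20 transcription regulators of the mitotic genes, both activators and repressors, 6 were called lower and 0 higher. The shares of all genes were 11.3% and 13.6%. Foxm1, the G2 transcription factor and an activator, fell from 93.4, 118 and 95.7 CPM to 52.6, 77.7 and 76.9 CPM (log2 fold change -0.57 ± 0.18, adjusted p = 0.0403). Mybl2, which encodes the activator B-Myb, fell from 61.2, 62.0 and 56.5 CPM to 30.5, 45.0 and 45.4 CPM (log2 fold change -0.57 ± 0.18, adjusted p = 0.0399). Tfdp1, the dimerization partner of E2F proteins, fell by 0.64 ± 0.12 on the log2 scale (adjusted p = 0.00423), E2f4 by 0.70 ± 0.14 (adjusted p = 0.00660) and E2f6 by 0.58 ± 0.12 (adjusted p = 0.00834). E2f8 was the remaining one. E2f4, E2f6 and E2f8 are known mainly as repressors. In the 3 named E2F-related genes all mutant libraries, replicate 3 included, lay under all controls.

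Upstream of Cdk1, the genes that passed the test fell, and the Cdk inhibitors that passed rose. Among all genes, 11.3% were called lower and 13.6% higher. Of 12 genes of the G2 checkpoint and Cdk1 regulation, 3 were called lower, namely Bora, an activator of Plk1 (log2 fold change -0.75 ± 0.19, adjusted p = 0.0207), the inhibitory kinase Wee1 (log2 fold change -0.55 ± 0.15, adjusted p = 0.0280) and the phosphatase Cdc25a (log2 fold change -0.60 ± 0.17, adjusted p = 0.0299). Of 6 tested Cdk inhibitors 2 were called higher and 0 lower. Cdkn2b, the p15 inhibitor of Cdk4 and Cdk6, rose from 1.86, 0.810 and 0.650 CPM to 21.02, 16.4 and 21.3 CPM (log2 fold change 4.12 ± 0.43, adjusted p = 0.000253). Cdkn1a, the p21 inhibitor, rose from 64.3, 53.9 and 29.6 CPM to 115, 90.9 and 114 CPM (log2 fold change 1.11 ± 0.25, adjusted p = 0.0108). In contrast to the members, neither inhibitor was nearer to control in Pea3 TKO replicate 3. Cdkn1c, encoding p57, had 621 and 572 CPM in mutant replicates 1 and 2 and 341 CPM in replicate 3, beside 318 to 429 CPM in control (adjusted p = 0.117). Cdkn2a was not tested, with at most 0.350 CPM.

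For comparison with the next lists, 11.3% of all genes were called lower and 13.6% higher. Among 38 tested genes of the spindle checkpoint and kinetochore, 11 were called lower and 37 lay below 0. The smallest p were those of Spdl1 (log2 fold change -0.77 ± 0.16, adjusted p = 0.00773), Mad1l1 (-0.61 ± 0.13, adjusted p = 0.00818) and Sgol1 (-0.61 ± 0.13, adjusted p = 0.00955). Spdl1 brings dynein to kinetochores, Mad1l1 anchors the checkpoint protein Mad2 and Sgol1 protects centromeric cohesin. The anaphase-promoting complex had the median nearest to 0 of the 6 lists (-0.09), with 1 of 16 subunits and partners called lower, Cdc23 (log2 fold change -0.42 ± 0.14, adjusted p = 0.0455), 1 called higher, Anapc2 (log2 fold change 0.46 ± 0.10, adjusted p = 0.0116), and Anapc15 next by p without passing (adjusted p = 0.0705). Of 20 cohesin, condensin and separase genes 3 were called lower, among them the condensin subunits Smc2 (log2 fold change -0.56 ± 0.13, adjusted p = 0.0124) and Ncapd3 (log2 fold change -0.68 ± 0.19, adjusted p = 0.0272), and 2 higher, the cohesin subunit Rad21 (log2 fold change 0.38 ± 0.11, adjusted p = 0.0283) and the condensin II subunit Ncaph2. Smc2 is the partner of the member Smc4 in condensin, and its counts of 115, 120 and 149 CPM in Pea3 TKO lay under 177 to 195 CPM in control. The calls among the anaphase-promoting complex genes and among the cohesin, condensin and separase genes were near the shares of all genes. In the list of spindle, centrosome and cytokinesis genes 9 of 34 were called lower and 0 higher. The tubulin Tuba1b fell from 723, 841 and 759 CPM to 416, 480 and 620 CPM (log2 fold change -0.62 ± 0.15, adjusted p = 0.0177), and the centriole genes Cep152 (log2 fold change -1.14 ± 0.29, adjusted p = 0.0181) and Sass6 (log2 fold change -0.93 ± 0.24, adjusted p = 0.0217) had larger fitted falls than any member.

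The earlier phases of the cycle were read beside the members. Of 55 S phase and replication genes 14 were called lower and 0 higher, beside 11.3% and 13.6% of all genes. Of the 55, 52 lay below 0, and their median log2 fold change was -0.31. Ccne1, the cyclin of the G1 to S transition, fell by 1.03 ± 0.21 on the log2 scale (adjusted p = 0.00659), Exo1 by 0.70 ± 0.16 (adjusted p = 0.0119) and Pold2 by 0.64 ± 0.16 (adjusted p = 0.0181). The S phase genes were lowest in Pea3 TKO replicate 1, with library medians of -0.66, -0.26 and -0.09 relative to the mean control in replicates 1 to 3, where the medians of the mitotic members were -0.53, -0.52 and -0.12. Among 7 tested G1 genes Myc was called lower (log2 fold change -0.92 ± 0.17, adjusted p = 0.00437), and Mycn (log2 fold change 1.63 ± 0.31, adjusted p = 0.00501), Ccnd1 (log2 fold change 1.52 ± 0.35, adjusted p = 0.0129) and Ccnd3 were called higher. Ccnd1, cyclin D1, had 571, 630 and 1028 CPM in Pea3 TKO, over 164 to 426 CPM in control.

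**Figure D4:**
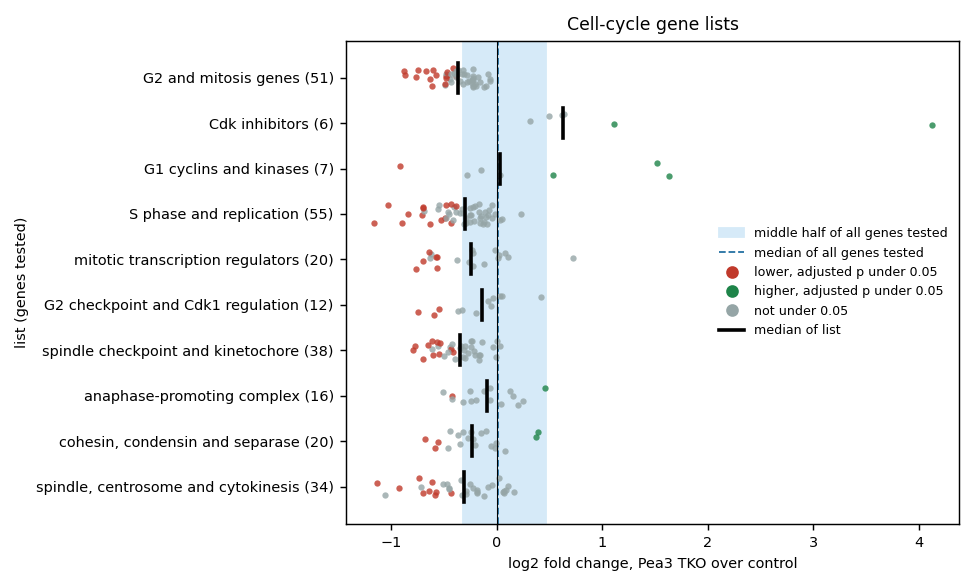
Log2 fold change of Pea3 TKO over control (horizontal axis) for the G2 and mitosis genes and for 9 other cell-cycle lists (rows, with the number of genes tested), with each list's median as a black bar. The members have a median of -0.37 and no gene above 0, the S phase genes a median of -0.31, and the Cdk inhibitors lie above 0.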

How the data were processed

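RNA-seq of laser-captured E14.5 lacrimal gland bud epithelium was analysed for 3 control and 3 Pea3 TKO libraries. Per the labels, RNA was amplified with the Nugen Ovation RNA-Seq System V2 and sequenced on a HiSeq2500. The submitters' processing notes name bcl2fastq 2.17, STAR 2.5.2b, featureCounts 1.5.0-p3, DESeq and mm10. The annotation, strand setting and treatment of multiply mapped reads are not given in the sources used here. The values deposited by the authors are raw read counts per gene symbol, without normalization.

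Counts were tested with edgeR 4.0.16 (R 4.3.3), using filterByExpr, TMM normalization, a quasi-likelihood model in which condition was the sole term, and a Benjamini-Hochberg threshold of 0.05 over all 13087 genes. Standard errors were derived from the fold change and its F statistic. CPM are TMM-normalized, and RPKM divide them by the union exonic length from GENCODE M21 (GRCm38, the assembly of mm10), in which 21777 symbols matched directly and 1278 by an older symbol. Groups follow the sample labels. Replicates were no copies of each other, with chi-square per degree of freedom of at least 15.7 within groups. An exact permutation of 3 against 3 cannot give a p under 0.1. Promoters are those of RefSeq on GRCm38.p6. Scripts were tested on simulated counts.

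The members and the lists were chosen with earlier results of these data known. Full values are given by a rule for members with adjusted p under 0.05, for the 3 highest and 3 lowest fold changes, for the most abundant member per length and for Cdk1, Ccnb1, Plk1, Aurkb, Top2a and Mki67, and of each other list for up to 3 genes with the smallest p. Other genes were named after their values were seen. The 19 alternatives set beforehand covered DESeq2 1.42.0, limma-voom (limma 3.58.1), other size factors and filters, the replicate number as a block, GC content and length, a Y-linked covariate, thresholds and each library left out. The comparison of Pea3 TKO replicate 3 alone with the controls was added after seeing the data.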

Additional observations from a re-analysis of the deposited data

How the results depend on the processing

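All 51 members lay below 0 under DESeq2, limma-voom, the 3 other size factors, both other filters, the replicate block and the GC and length offset. Members called lower numbered 20 with DESeq2, 18 with limma-voom, 14 with median-ratio factors, 10 with upper-quartile factors, 13 with library totals alone, 13 without a filter and 16 with a stricter one, and 0 were called higher in any fit. Of all genes, 12.1% were called lower with DESeq2 and 12.5% with limma-voom. With the 3 other size factors, in the same order, 1472, 1302 and 1375 of 13087 genes were called lower. The numbers were 1403 of 16893 genes without a filter and 1546 of 12252 with a stricter one. With the GC and length offset the number was 29, at an adjusted p under 0.01 it was 1 and under 0.10 it was 26. The replicate numbers did not pair the libraries, since deviations of same-numbered libraries correlated at 0.13, -0.04 and -0.0009. The replicate block called 14 members, 13 of them among the 16, and 3191 genes in all, of which 1422 were lower. The block with the GC and length offset called 34 members lower, beside 2632 of 13087 genes. Leaving out single libraries gave 1 to 25 members, 11 to 43 other G2 and mitosis genes called lower and 0 to 4 higher, 5 to 19 S phase genes and 1948 to 3344 genes in all. The lowest number of members was without Pea3 TKO replicate 2 and the highest without Pea3 TKO replicate 3. With the Y-linked covariate, 0 members, 0 other G2 and mitosis genes in either direction, 0 S phase genes and 778 genes in all were called, and the median of members was -0.12. With Pea3 TKO replicate 3 alone against the controls, the numbers were 0, 0, 0 and 597, and the median was -0.12. With the Y-linked covariate 3 members had an unadjusted p under 0.05, and the share of all genes at that level is not given.

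The 140 other G2 and mitosis genes gave 53 lower and 0 higher with the GC and length offset, 56 and 1 with the block added, 6 and 0 at 0.01 and 51 lower at 0.10. Of all 13087 genes, 2558 were called lower with the offset and 2632 with the block added. At 0.01, 1 S phase gene passed, and genes called in all numbered 1426 at 0.01 and 4358 at 0.10. Of 972 values of 54 named genes under the alternatives, 736 kept direction and side of the threshold, 209 lost the call, 12 gained one and 15 changed sign. Those that changed sign were near 0 or overlapped between groups. With the Y-linked covariate the log2 fold change was 0.18 for Nusap1, 0.29 for Ndc80, 0.10 for Ccnb2, 0.055 for Top2a and -0.090 for Cdkn1c. With Pea3 TKO replicate 3 alone it was 0.18 for Nusap1, 0.29 for Ndc80, 0.11 for Ccnb2, 0.0066 for Plk1, 0.071 for Top2a and -0.074 for Cdkn1c. Without single libraries it ran from -0.23 to 0.041 for Nusap1 and from -0.28 to 0.057 for Ndc80. The cause of these changes was not tested. At 3 libraries a group and a median standard error of 0.16, a member that missed the threshold is not shown to be unchanged.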
